A study of Mus musculus with 9 samples.

Results

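The circadian clock genes Arntl, Npas2, Clock, Per1, Per2, Per3, Nr1d1, Nr1d2, Dbp and Tef were followed in 9 hearts of adult C57BL/6J mice. They are 10 of the 15779 genes in the deposited tables, found by symbol, and each had a value in every library. They were selected on the values of Arntl and Dbp, which differed from one treated heart to another, so values in the treated hearts are given as a description. All 10 passed the filter of a mean of at least 1 in each comparison. The hearts fell into 3 groups of 3 libraries, with 1 library a heart as far as the labels show. Wild-type mice were given saline. Mice homozygous for the premature stop codon Mybpc3 R946X were given saline, or were given the adenine base editor exABE8e at a dose labelled high. The series' design text names AAV9 as the carrier of the editor and cardiomyocytes as the cells meant to express it. No group analysed here received a virus without an editor, so virus, editor and restored Mybpc3 cannot be told apart. Sex, age beyond adult, and the hour at which the hearts were taken are not given in the sources used here.

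As background, the clock is a feedback loop of transcription that runs in nearly every cell, cardiomyocytes included. BMAL1 (the product of Arntl) pairs with CLOCK or its paralog NPAS2 and activates genes with E-box sequences, among them the Per and Cry repressors, the nuclear receptors Nr1d1 and Nr1d2 (REV-ERB alpha and beta) and the output factor Dbp. REV-ERB proteins in turn repress Arntl and Npas2 through ROR elements, so that transcripts of Arntl and of Dbp or Nr1d1 peak at opposite times of day in heart and other tissues. DBP, TEF and HLF activate genes through D-boxes, where NFIL3 acts as a repressor.

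Library totals lay between 999152 and 999382 on the authors' normalized scale, and mitochondrial transcripts made up 17.0% to 24.1% of them. Mybpc3, the mutated gene, was 1510 to 2039 in wild type, 133 to 186 in saline mutants and 1024 to 1374 in treated mutants. Xist, a transcript of the inactive X chromosome, was found in 1 library of each group (wild type replicate 1, saline mutant replicate 3 and treated replicate 1). Treated replicate 1 had Xist at 39 together with the Y-linked Ddx3y at 38, so it stands apart from the other 8 libraries, which had 1 of these transcripts only. Ddx3y was 76 and 82 in the other treated libraries. Whether treated replicate 1 holds RNA of more than 1 heart was not tested, and it is counted here as 1 library. Summed cardiomyocyte markers (6 of 6 genes) were 36558 to 44193 in wild type, 37157 to 46822 in saline mutants and 39508 to 43585 in treated hearts. These sums are mostly Myh6 and Actc1. Against wild type, Tnnt2 (log2 fold change -0.33), Tnni3 (-0.50) and Pln (-0.41) were lower and Actc1 (0.32) higher in saline mutants, without overlap. Myh6 and Ryr2 overlapped. The groups did not overlap in 21.6% of all genes, and 0 of the 6 markers passed the adjusted test. Fibroblast markers (4 of 4) summed to 849 to 1116, 1319 to 1958 and 1010 to 1217 in the same order, and blood markers (5 of 5) to 104 to 313, 69 to 85 and 140 to 158. Macrophage markers (4 of 4) were 140 to 185, 157 to 292 and 134 to 195, and endothelial markers (4 of 4) 694 to 1039, 649 to 764 and 656 to 774. Skeletal muscle markers (3 of 6) summed to at most 4 and T cell markers (2 of 4) to at most 1 in any library. Of the atrial markers 2 of 4 were read (43 to 62, 359 to 1494 and 158 to 258, nearly all Nppa), and of the adipose markers 1 of 4, Cidea (21 to 29). The lung markers were not analysed here. In whole hearts, fewer cells of a type and less RNA per cell cannot be told apart.

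Arntl and Npas2 are activators of the loop, and the treated values of Arntl, with those of Dbp, chose the members. Arntl (chromosome 7, 113207465 to 113314126, GRCm38) was 3, 3 and 2 in wild type, 6, 3 and 3 in the mutants given saline, and 25, 17 and 3 in the treated hearts, in the order of replicates 1 to 3. Treated replicates 1 and 2 lay above all 6 saline hearts, and treated replicate 3 lay within their range. The highest treated heart was 8.33 times the lowest, a range of 2.70 on the scale log2(value + 1) used throughout. At values of 2 to 6 a rounding step is a large part of the value, so that differences among the saline hearts are coarse.

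**Figure D1:**
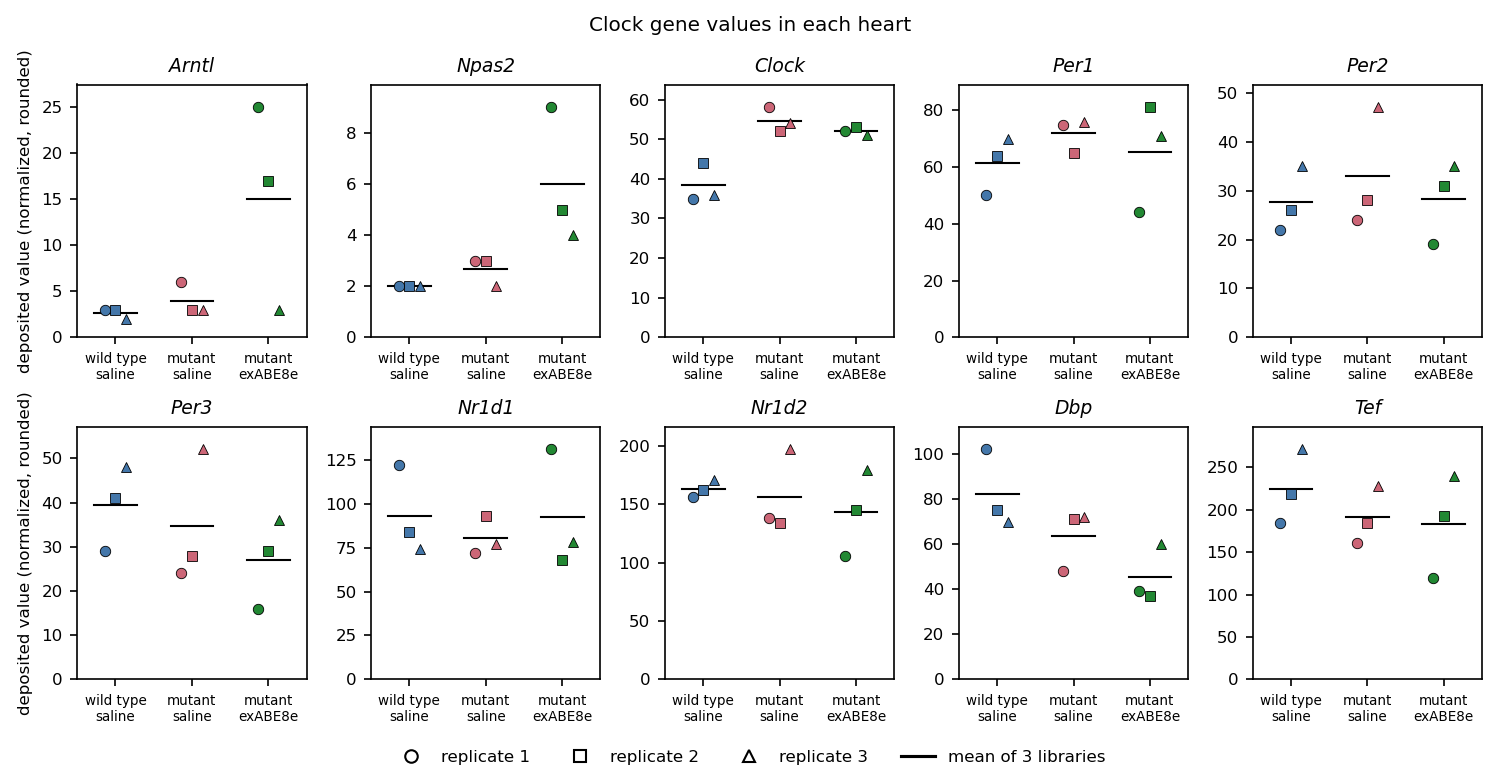
Deposited normalized values of the 10 clock genes in each heart (y axis, from 0), with symbols for replicates 1 to 3, colours for the groups and a line at the mean of 3 libraries. Treated replicates 1 and 2 have Arntl at 25 and 17, against 2 to 6 in the saline hearts, and Clock is at 52 to 58 in saline mutants against 35 to 44 in wild type.

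Npas2 (chromosome 1, 39193731 to 39363236) was 2 in each wild-type heart, 3, 3 and 2 in the mutants given saline, and 9, 5 and 4 in the treated hearts. All 3 treated hearts were above all 6 saline hearts, and treated replicate 1 was again the highest. Treated replicate 3, at 4, was next to the highest saline value of 3, so rounding limits this separation. Without treated replicate 1 the treated means were 10 for Arntl and 4.5 for Npas2, in place of 15 and 6, against 3.33 and 2.33 over the 6 saline hearts. The log2 fold change of Arntl was 1.35 (SE 0.613) against saline mutants and 1.76 (SE 0.623) against wild type, with the mean of the treated hearts 3.75 and 5.62 times those of the saline groups. Npas2 differed by 0.88 (SE 0.276) and 1.16 (SE 0.256). Without treated replicate 1 the differences were 0.82 and 1.22 for Arntl and 0.59 and 0.87 for Npas2. Both comparisons share the treated hearts whose values chose the members, and are given here as values.

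The bases before the start of Arntl, with those of the 3 other members whose windows hold a match and lie outside annotated exons but for at most 1 base, are shown because the members divide into genes driven through E-boxes, D-boxes and ROR elements. The sequences are from RefSeq (GRCm38.p6, the assembly also called mm10) and run 5′ to 3′ on the gene's strand over the 250 bases before the most upstream start listed. Capitals mark matches, on either strand, to the E-box CACGTG, the E′-box CACGTT, the D-box TTATGTAA or TTATGCAA, the ROR element TAGGTCA or TGGGTCA, or the cAMP response element TGACGTCA; no 2 matches overlapped.
Arntl (chr7:113207215-113207464, plus strand): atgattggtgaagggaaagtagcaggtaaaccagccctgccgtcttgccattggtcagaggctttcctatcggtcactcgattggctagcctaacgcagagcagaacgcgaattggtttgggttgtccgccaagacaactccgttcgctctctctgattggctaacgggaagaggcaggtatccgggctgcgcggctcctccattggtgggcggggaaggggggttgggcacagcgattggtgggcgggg
Per3 (chr4:151044666-151044915, minus strand): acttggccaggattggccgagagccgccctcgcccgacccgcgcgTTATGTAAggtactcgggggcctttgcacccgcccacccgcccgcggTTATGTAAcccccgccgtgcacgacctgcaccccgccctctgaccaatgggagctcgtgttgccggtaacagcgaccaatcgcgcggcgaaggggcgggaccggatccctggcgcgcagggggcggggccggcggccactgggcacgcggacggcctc
Per1 (chr11:69098699-69098948, plus strand): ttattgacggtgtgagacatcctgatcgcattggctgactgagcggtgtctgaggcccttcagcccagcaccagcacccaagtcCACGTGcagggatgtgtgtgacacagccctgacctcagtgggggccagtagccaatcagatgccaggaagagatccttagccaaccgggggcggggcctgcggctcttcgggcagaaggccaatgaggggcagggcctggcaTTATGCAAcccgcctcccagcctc
Nr1d1 (chr11:98775378-98775627, minus strand): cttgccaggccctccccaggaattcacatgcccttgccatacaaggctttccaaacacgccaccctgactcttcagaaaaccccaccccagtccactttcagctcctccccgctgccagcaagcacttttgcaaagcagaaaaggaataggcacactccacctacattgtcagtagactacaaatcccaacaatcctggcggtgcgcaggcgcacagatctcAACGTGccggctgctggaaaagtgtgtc

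Of the 9 members with a window in the table, 4 held a match. Per3 held the D-box TTATGTAA 2 times, 205 and 158 bases before the start, and 1.5% of all 32851 promoter windows held a D-box. Per1 held an E-box 166 bases and a D-box 24 bases before its start, which lies inside the interval annotated for the gene. Tef held an E-box, 127 bases before its start in annotated exon sequence, and E-boxes were found in 6.02% of windows. Nr1d1 held an E′-box 28 bases before its start (3.85% of windows). No ROR element (5.38% of windows) or cAMP response element (1.55%) was found in the 9 windows, which says only that these letters are not in them.

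Clock (chromosome 5, 76209868 to 76304792), the partner of BMAL1 with histone acetyltransferase activity, was the 1 member called between the saline groups. It was 35, 44 and 36 in wild type, 58, 52 and 54 in the mutants given saline, and 52, 53 and 51 in the treated mutants. The saline groups did not overlap, and treated hearts lay at the level of saline mutants. Clock was 1.43 times as high in saline mutants as in wild type (54.7 ± 3.06 against 38.3 ± 4.93, SD, n = 3; log2 fold change 0.51, SE 0.121, limma adjusted p 0.0381). Of the 10 members, 1 was thus called (Benjamini-Hochberg adjusted p under 0.05 over all genes), against a background of 7.7% of 13632 genes called in either direction, 4.56% called higher and 3.14% called lower (19.7% at an unadjusted p under 0.05). The groups did not overlap in 21.6% of all genes, and in 1 of 10 members. The call was lost in 9 of 17 alternative fits, with an adjusted p of 0.0171 to 0.16, while the difference stayed between 0.43 and 0.61. It was lost without any 1 of the 3 saline mutants and without wild type replicate 1 or 3. Clock is not among the 689 genes that the authors selected for this comparison, where their log2 fold change is 0.445. Fibroblast markers were higher and blood markers lower in saline mutants without overlap, and their part in this difference was not tested.

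**Figure D2:**
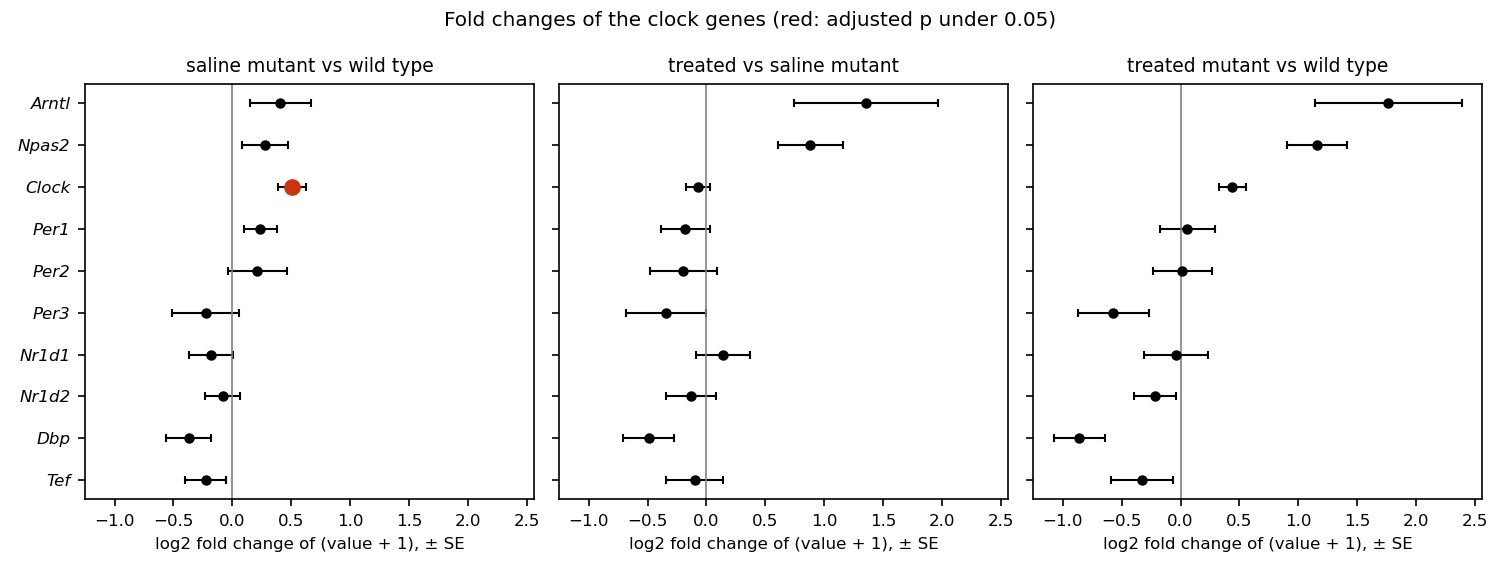
Log2 fold changes of (value + 1) for the 10 clock genes (x axis) with their standard errors, in the 3 comparisons of groups with 3 libraries each. Clock at 0.51 in saline mutants against wild type is the only value with an adjusted p under 0.05, and Arntl and Npas2 lie farthest to the right in both comparisons of treated hearts.

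The Period genes encode the repressors that close the loop. Per1 (chromosome 11, 69095217 to 69109960) was 50, 64 and 70 in wild type, 75, 65 and 76 in the mutants given saline and 44, 81 and 71 in the treated hearts. Treated replicate 1 was below, and treated replicate 2 above, the saline range of 50 to 76. Per2 (chromosome 1, 91415982 to 91459324) was 22, 26 and 35 in wild type, 24, 28 and 47 in the mutants given saline and 19, 31 and 35 in the treated hearts, and Per3 (chromosome 4, 151003652 to 151044665) was 29, 41 and 48, then 24, 28 and 52, then 16, 29 and 36. In both genes treated replicate 1 was below all 6 saline hearts, and the groups overlapped. Between saline mutants and wild type the log2 fold changes were 0.24 (SE 0.141) for Per1, 0.21 (SE 0.254) for Per2 and -0.23 (SE 0.284) for Per3, with limma adjusted p-values of 0.406, 0.711 and 0.724. Per3 was called lower (-0.75) only when the 3 libraries with Xist were left out (adjusted p 0.0397, range over the alternatives up to 1), where wild type was 41 and 48 and saline mutants 24 and 28; this leaves 2 hearts a group.

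Nr1d1 (chromosome 11, 98767932 to 98775333), the heme-binding repressor of Arntl, was 122, 84 and 74 in wild type, 72, 93 and 77 in the mutants given saline and 131, 68 and 78 in the treated hearts. Treated replicate 1, with the highest Arntl, also had the highest Nr1d1 of the 9 hearts, and treated replicate 2 the lowest. Its paralog Nr1d2 (chromosome 14, 18204054 to 18239127) was 156, 162 and 171, then 138, 134 and 197, then 106, 145 and 179. Treated replicate 1 was thus the lowest of all hearts for Nr1d2, so the paralogs stood at opposite ends in that library. The groups overlapped in both genes, and the differences between saline mutants and wild type were -0.18 (SE 0.186) and -0.08 (SE 0.15), with limma adjusted p-values of 0.665 and 0.822.

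Dbp and Tef encode PAR bZIP factors, the D-box activators through which the clock reaches many metabolic genes. Dbp (chromosome 7, 45705088 to 45710203) was 102, 75 and 70 in wild type, 48, 71 and 72 in the mutants given saline, and 39, 37 and 60 in the treated hearts. Treated replicates 1 and 2, the hearts with high Arntl, had the lowest Dbp of all 9, below the saline range of 48 to 102, and treated replicate 3 lay inside it. Dbp differed by -0.37 (SE 0.193, limma adjusted p 0.339) between saline mutants and wild type, with overlap. The treated mean was 0.712 times that of saline mutants and 0.551 times that of wild type, without overlap against wild type only. Without treated replicate 1 the treated mean of Dbp was 48.5 in place of 45.3, and the differences were -0.40 against saline mutants (from -0.49) and -0.77 against wild type (from -0.86). Tef (chromosome 15, 81802421 to 81826863) was 184, 218 and 271, then 161, 184 and 228, then 119, 192 and 240. Treated replicate 1 was again the lowest heart, and the saline groups differed by -0.23 (SE 0.17, limma adjusted p 0.522). The treated mean of Tef was 184, and 216 without treated replicate 1.

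**Figure D3:**
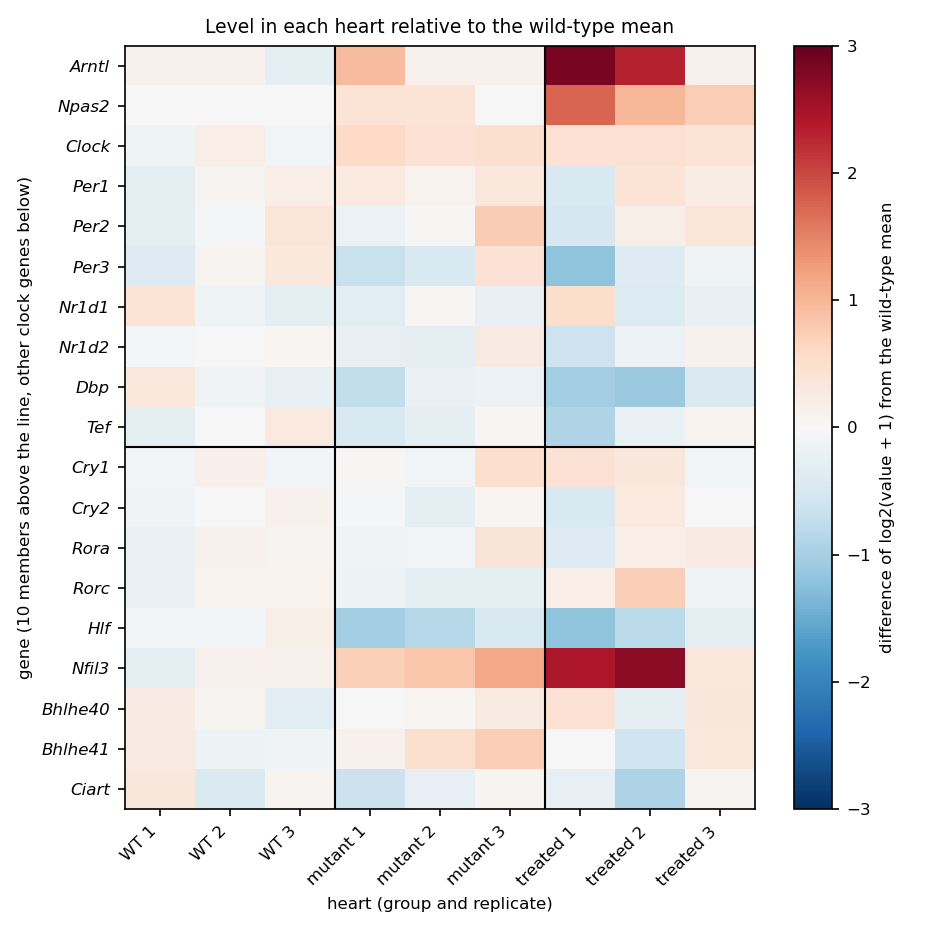
Level of each clock gene (rows) in each heart (columns), as the difference of log2(value + 1) from the wild-type mean, red for higher and blue for lower. Arntl and Nfil3 are high in treated replicates 1 and 2, and Per3, Dbp, Tef and Hlf are low in treated replicate 1.

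In the comparisons of treated hearts, 0 of 10 members were called, where 0.0147% of 13636 genes were called against saline mutants and 0.989% of 13554 against wild type. Since the treated values chose the members, nothing is read from these counts. At an unadjusted p under 0.05, limma gave 1130 (8.29%) and 1697 (12.5%) of all genes. The calls over all genes were 0.00733% higher and 0.00733% lower against saline mutants, and 0.863% higher and 0.125% lower against wild type. The groups did not overlap in 1 member (Npas2) against saline mutants and in 3 (Npas2, Clock and Dbp) against wild type, with 9.82% and 14.6% of all genes. In the authors' deposited table of selected genes Arntl is listed against saline mutants (log2 fold change 1.95) and against wild type (2.49), and Dbp against wild type (-0.89).

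Treated replicate 1 lay outside the range of the 6 saline hearts in 9 of 10 members, treated replicate 2 in 5 (Arntl, Npas2, Per1, Nr1d1 and Dbp) and treated replicate 3 in 1 (Npas2), where 22.3%, 23.4% and 4.73% of 13530 genes with a mean of at least 1 lay outside in the same libraries. These counts rest on treated values, and nothing is read from them. Clock was the exception in treated replicate 1. The SD of log2(value + 1) within a group had a median over the 10 members of 0.26 in wild type and 0.28 in saline mutants, where the medians over genes with a mean of at least 10 in the group were 0.14 and 0.15. In the saline groups, which the choice of members did not name, 8 of 10 members had an SD above the median gene in each group. These include Arntl in both groups and Npas2 in saline mutants. Both genes have means below 10, outside the reference genes, where a rounding step alone gives a large SD. Per3 was above 90% of genes in both (percentiles 94.8 and 98.6), as was Per2 (percentiles 92.6 and 97.5).

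Per2, Per3 and Tef ordered the hearts in the same way in every group. In wild type, saline mutants and treated mutants alike, replicate 1 held the lowest and replicate 3 the highest value of each of these genes. This order in all 3 groups was found in 75 of 8786 genes with a mean of at least 10 (0.854%), and in 3 of the 8 members that reach this mean. Any 1 strict order shared by the 3 groups was found in 144 genes (1.64%). Nr1d2 followed it in wild type and treated hearts, but not in saline mutants. The labels do not say that a replicate number links hearts of different groups, and the pattern was noticed after the values were seen. The pattern rests in part on the treated values, so nothing is read from these counts.

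Whether Arntl and Dbp are opposed in hearts that the choice did not use was tested once, over the 6 saline hearts. Pearson's r was -0.649 (two-sided exact permutation p 0.2) and Spearman's coefficient -0.169 (exact permutation p 1), and this was the only relation tested, so the adjusted values are the same. It rested on saline mutant replicate 1, which has the highest Arntl (6) and the lowest Dbp (48) of these hearts: without it r was 0.345 (exact permutation p 0.4). Without the 2 hearts farthest from the median of Arntl, the other 4 all had Arntl at 3, and no r could be computed. Centred on the group means, r was -0.476 (exact permutation p 0.333). An opposition in the saline hearts was therefore not detectable at these low, rounded Arntl values.

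Of the other clock genes, 16 of 17 were tested between saline mutants and wild type, 2 were called higher and 1 lower, with a median log2 fold change of 0.05 against 0.07 over all genes. Of all genes 4.56% were called higher and 3.14% lower. The list was chosen with earlier results of these data known, so nothing is read from this contrast. Hlf, the remaining PAR bZIP factor, was 47, 47 and 56 in wild type and fell by 0.78 to 24, 27 and 36 in saline mutants (SE 0.16, limma adjusted p 0.0201), without overlap. It was 21, 28 and 41 in treated hearts. Nfil3, which opposes these factors at D-boxes, was 5, 7 and 7 in wild type and rose by 0.90 to 11, 12 and 15 in saline mutants (SE 0.181, limma adjusted p 0.0186). In treated hearts Nfil3 was 38, 46 and 8, so the same 2 libraries that had high Arntl had high Nfil3. Rorb, a receptor that activates through ROR elements, was 1, 0 and 1 in wild type and 4, 4 and 3 in saline mutants (1.55, SE 0.299, limma adjusted p 0.0153). At such low values the size depends on the pseudocount, and it was 2.92 with 0.1 and 0.62 with 5. The calls were lost in 5 of 17 alternatives for Hlf and in 6 and 4 of 16 for Nfil3 and Rorb. Among single libraries, Hlf lost its call without saline mutant replicate 2, wild type replicate 1 or wild type replicate 3 (limma adjusted p 0.0659 to 0.0919). Nfil3 lost it without saline mutant replicate 2 or 3 or wild type replicate 1 (0.0564 to 0.0752), and Rorb without saline mutant replicate 2 (0.075). In treated hearts 0 of 16 were called in either comparison, with medians of 0.05 against saline mutants and 0.15 against wild type (all genes -0.03 and 0.01). Of all genes 0.0147% and 0.989% were called in these comparisons. The largest differences there were those of Nfil3 (0.91, SE 0.537, and 1.81, SE 0.569) and Rorb (-0.63, SE 0.183, and 0.92, SE 0.295).

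Of 13 genes known as clock-controlled outputs, 4 were lower in saline mutants by the test and none higher, with a median of -0.25, where 3.14% of all genes were called lower and the median of all genes was 0.07. The 9 others were not called. This list too was chosen with earlier results known, so its count is not read as an enrichment. Among those called were the ion channel genes Kcnip2 (-0.94, SE 0.107, limma adjusted p 0.00139) and Kcnh2 (-0.48, limma adjusted p 0.0369), and Dgat2 (-0.72, limma adjusted p 0.00575), which makes triglyceride. Kcnip2 was 206, 224 and 217 in wild type, 120, 119 and 99 in the mutants given saline and 145, 180 and 174 in the treated hearts. Kcnip2 and Dgat2 kept their calls in 17 of 17 alternatives. Kcnh2 lost its call in 10, among them without any single 1 of the 6 saline libraries (limma adjusted p 0.0567 to 0.152). In treated hearts 0 of 13 were called in either comparison (0.0147% and 0.989% of all genes), with medians of -0.10 and -0.18. Among the largest differences were those of Kcnip2 (0.56) against saline mutants, and of Ucp3 (-0.60) and Kcnh2 (-0.59) against wild type. Usp2, Tsc22d3, Tspan4 and Wee1, direct targets of the loop, were not called in any of the 3 comparisons.

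The treated hearts with high Arntl also had high values of some heat shock genes. Hspa1a and Hspa1b, the inducible HSP70 genes, have near-identical coding sequences, so their reads may be shared. Hspa1a was 1 or 2 in the 6 saline hearts and 29, 19 and 2 in treated hearts, and Hspa1b was 1 to 4 and then 42, 22 and 2. Hsph1, the HSP110 co-chaperone, was 48 to 54 in wild type, 67 to 83 in the mutants given saline and 196, 107 and 68 in the treated hearts. Treated replicates 1 and 2 were above the saline hearts in all 3 genes, and treated replicate 3 lay within their range. The same held for Dnajb1, at 39, 24 and 20 in treated hearts against 17 to 22 in saline hearts. In treated hearts Hsp90aa1 was 390, 193 and 183, and Hspa8 was 2628, 1821 and 1587. In these 2 genes only treated replicate 1 was above the saline hearts. The part of heat shock genes in the Arntl values was not tested. Of the 8 heat- and cold-responsive genes, Hspa8 (0.59), Hsp90aa1 (1.31) and Hsph1 (0.49) were called higher in saline mutants against wild type. Their limma adjusted p-values were 0.0102, 0.000335 and 0.0374. Of all genes 4.56% were called higher in this comparison, and the median of the 8 was 0.42 against 0.07 over all genes. Earlier results were known when these 8 were chosen, so nothing is read from this contrast. In either comparison of treated hearts 0 of 8 were called (0.0147% and 0.989% of all genes). Hspa1a (2.41 and 2.60) and Hspa1b (1.88 and 2.46) differed most there. Hspa8 lost its call in 5 of 17 alternatives, among them without saline mutant replicate 2 (limma adjusted p 0.0512). Hsph1 lost its call in 11, among them without saline mutant replicate 2 or 3 or any wild-type library (limma adjusted p 0.0732 to 0.174).

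Glucocorticoid-responsive genes, of which Per1 is a member, were read in the same way, as corticosterone follows the day and acts on heart cells. Of 10 genes 9 were tested, and Pdk4 (0.95, limma adjusted p 0.0147), an inhibitor of pyruvate dehydrogenase that lowers glucose oxidation, and Cdkn1a (1.42, limma adjusted p 0.00874), a cell cycle inhibitor, were called higher in saline mutants against wild type, with a median of 0.37 (4.56% of all genes called higher, median 0.07). The count was 4 without wild type replicate 3 and 0 with limma-trend without the rounding floor. As the list was chosen with earlier results known, its count is not read against that of all genes. Pdk4 lost its call in 4 of 17 alternatives, among them without saline mutant replicate 2 or wild type replicate 1 (limma adjusted p 0.0594 and 0.0752), and Cdkn1a in 1. In treated hearts 0 of 9 were called in either comparison (0.0147% and 0.989% of all genes), with medians of 0.06 and 0.40. The largest differences were Pdk4 (-0.55) and Cdkn1a (0.51) against saline mutants, and Cdkn1a (1.93) and Fkbp5 (1.35) against wild type. Fkbp5, a chaperone of steroid receptors, was 31, 27 and 94 in wild type, 87, 133 and 106 in the mutants given saline and 105, 134 and 98 in the treated hearts, so wild type replicate 3 stood with the mutants. The part of glucocorticoid genes in the clock gene values was not tested.

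**Figure D4:**
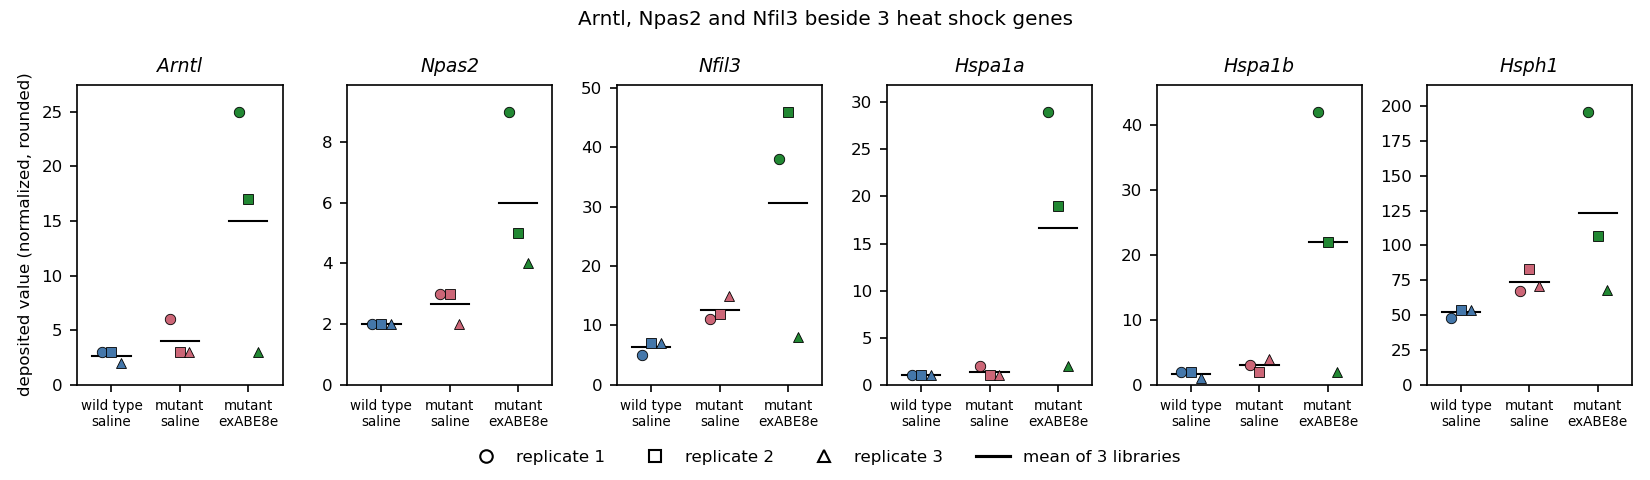
Deposited normalized values (y axis, from 0) of Arntl, Npas2, Nfil3 and the heat shock genes Hspa1a, Hspa1b and Hsph1 in each heart, with a line at the mean of 3 libraries. In treated hearts, replicates 1 and 2 are above replicate 3 in all 6 genes, and treated replicate 3 has Arntl at 3 and Hspa1a at 2.

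Genes whose pattern was most like that of Arntl were ranked by Pearson's r of deviations from the own group's mean, over the 9 hearts and 8786 genes with a mean of at least 10; the r values are a description and the 9 hearts share one scaling by the authors. The highest were Pex10 (0.979), Abra (0.97), Rcan1 (0.967), Bag3 (0.951) and Pfkl (0.942), and the lowest Gm12537 (-0.959), Arl15 (-0.939), Net1 (-0.931), Frem2 (-0.931) and Cdc42ep4 (-0.93). Pex10 was 13 to 14 in the saline hearts and 16, 15 and 13 in the treated hearts, so its r rests on small steps of rounded values. Abra, an actin-binding protein of striated muscle, was 21 to 27 in wild type, 122, 69 and 66 in the mutants given saline and 273, 282 and 53 in the treated hearts. Of the members, Npas2 had r 0.766 with Arntl, and Tef (-0.806), Nr1d2 (-0.753) and Dbp (-0.713) the lowest values. Arntl varied most in the treated hearts (SD of log2(value + 1) 1.43, against 0.24 in wild type and 0.47 in saline mutants). The values of those hearts chose the members, so nothing is read from these r values. Most like Dbp were Pcolce2 (0.973), Hmgn2 (0.972), Tmem70 (0.965), Svbp (0.965) and Rpl14.ps1 (0.959), and least like it Ell2 (-0.912), Pdzrn3 (-0.907), Itga7 (-0.907), Nt5dc3 (-0.905) and Phka1 (-0.905). Without centring on the group means 1 of the 5 highest for Arntl and 0 of 5 for Dbp were shared. With median-of-ratios factors 2 and 1 of the 5 highest and 0 of the 5 lowest for either gene were shared. With a filter of a mean of at least 1, 4 and 1 of the 5 highest and 2 of the 5 lowest for either gene were shared. These names depend on the centring, the scaling and the filter.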

How the data were processed

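Polyadenylated RNA of 9 mouse hearts was sequenced, with 3 libraries in each of 3 groups. The deposited tables name no unit. The values are whole numbers that sum to nearly the same total in every library, so they were read as a score that the authors normalized and rounded, and tests made for counts were not used. The authors' deposited tables of selected genes also give log2 fold changes, which are quoted as theirs and not recomputed. HISAT2, HTSeq, DESeq2 and the build mm10 are listed, without version or role, per the submitters' processing notes. The depth of the libraries is unknown, and no counting interval is given. All per-library columns were mapped to samples.

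Group differences were tested with limma 3.58.1 (R 4.3.3) on log2(value + 1), over genes with a mean of at least 1 in the libraries compared, in fits of the 2 groups concerned. The variance of each gene was kept at or above that of rounding to whole numbers. Variances were shrunk toward a trend over all genes, with the prior degrees of freedom taken from genes with a mean of at least 30. P-values were adjusted by Benjamini-Hochberg over all genes tested, with a threshold of 0.05. The labels call the libraries replicates and say no more, so p-values measure the spread between these samples, which may be technical in part. Each saline group holds libraries of different animals, since Xist was found in 1 of them and Ddx3y only in the others. Whether every library is a separate animal is not given. On simulated data with a log2 fold change of 1, the fit recovered 91.5% of changed genes for saline mutants against wild type (13632 genes), and 30% at 0.5. At 0.5 it recovered 15.4% for treated hearts against saline mutants and 21% against wild type. The simulated errors were independent, of equal spread in both groups, and drawn from variances fitted to these data. The rates hold for that setting only. Permutation tests used scipy 1.17.1 in Python 3.11.15 and pandas 2.3.3.

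The members and gene lists were chosen with earlier results of these data known. Named are all members, the called genes of each list (or the 2 with the largest change where none was called), and the 5 genes at each end of likeness to Arntl and Dbp. For 1 gene counted among the clock-controlled outputs, the values are not reported here. Replicate numbers are shared by the groups, and they were checked and not used as pairs. Positions are from GENCODE M21. Alternatives were other pseudocounts, filters, scaling factors, variance steps and designs, and the leaving out of libraries.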

Additional observations from a re-analysis of the deposited data

How the results depend on the processing

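Clock was the 1 member called between saline mutants and wild type, and 0 members were called with median-of-ratios factors, with limma-trend without the rounding floor, and with the replicate block. Leaving out 1 library gave 0 to 1 members called. Against wild type, 1 member (Npas2) was called in treated hearts in the fit of all 9 libraries, with 236 calls over all genes. Leaving out 1 library gave 0 to 1. The 1 was Arntl without treated replicate 3, the treated heart with low Arntl, with 133 calls over all genes. Treated values chose the members, so nothing is read from these counts. Signs turned for Per2 (-0.211), and for Nr1d1 (0.053), without the 3 libraries with Xist. Without single libraries Per2 ranged from -0.065 (saline mutant replicate 3) to 0.405, Nr1d1 from -0.333 to 0.024 (wild type replicate 1) and Nr1d2 from -0.259 to 0.018 (saline mutant replicate 2). The r of Arntl and Dbp ranged from -0.870 to 0.345 (saline mutant replicate 1) when 1 library was left out, and was -0.877 without the 2 saline libraries with Xist. The cause was not tested. The other alternatives kept the sign of Arntl, Npas2, Clock, Per1, Per3, Dbp and Tef between saline mutants and wild type. Of the called list genes named above for this comparison, Hlf, Kcnip2, Dgat2, Pdk4, Cdkn1a and Hsp90aa1 are among the authors' selected genes. Nfil3, Rorb, Kcnh2, Hspa8 and Hsph1 are not, and neither is Clock.

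Over all genes, 1050 calls between saline mutants and wild type became 506 to 1295. The 134 calls in treated hearts against wild type became 1 to 243, and 1 without wild type replicate 1. The 2 calls against saline mutants became 2 to 32. Of the calls against wild type 87.3% were on the higher side, which became 50.6% of 77 calls with limma-trend without the rounding floor (26 of them shared) and 73.8% with upper-quartile factors, and median-of-ratios factors moved the median of all genes between saline mutants and wild type from 0.07 to 0. With the replicate block the counts were 819, 30 and 35. Same-numbered libraries correlated over 0.1 in 4 of 9 pairs, from -0.37 to 0.57, and 3 of 9 libraries were closest to their own number. A filter of a mean of at least 10 leaves Arntl and Npas2 without a value between saline mutants and wild type. Rounding limits these low genes most. Of 168 member values under alternatives in each comparison of treated hearts, 163 against saline mutants and 167 against wild type moved by less than 1 SD. The SD is each gene's own, within groups. Leaving out 1 library cannot move a value that far, and filters, variance steps and designs do not change it. Most of these values could not have moved by 1 SD, so nothing is read from the counts.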

Other observations

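A search made after the values were seen counted genes in which both of a pair of hearts of one group were at least 2-fold above the 7 other hearts, on value + 1. Treated replicates 1 and 2 gave 27 such genes, 9 of them with both values at least 5. The 9 were Hspa1a, Hspa1b, Mmp3, Arntl, Nfil3, Serpina3n, Fos, Abra and Oas2. The other 8 pairs gave 2 to 34 genes, of which 0 or 1 had both values at least 5. Treated replicates 1 and 2 are the hearts with the high Arntl values that entered the choice of members. Nothing is therefore read from the contrast of this pair with the others. Serpina3n, an acute-phase protease inhibitor, was 48 and 49 in these hearts and 7 to 20 in the others. Mmp3, which degrades matrix, was 10 and 14 against 1 to 3, the immediate-early gene Fos was 12 and 8 against 1 to 3, and the interferon-induced Oas2 was 51 and 47 against 8 to 21.

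Zbtb16, a glucocorticoid-induced zinc finger gene, was 36, 46 and 140 in wild type, 129, 134 and 118 in the mutants given saline and 102, 185 and 129 in the treated hearts. As with Fkbp5, wild type replicates 1 and 2 were below the 7 other hearts, and wild type replicate 3 was among the mutants.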
